A study of Mus musculus and Homo sapiens with 59 samples.

Results

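Collagen genes encode the chains of the most abundant proteins of the extracellular matrix. They were taken here by symbol: every row whose name is Col, a number, a, and a number in the mouse table, and the same in capitals in the human table. This gave 42 of 19407 mouse rows and 42 of 22192 human rows, with 39 symbols in both tables. Of the mouse genes 26, and of the human genes 18 (so that 24 were not tested), were expressed highly enough to be tested in at least 1 comparison. Polyadenylated RNA was sequenced from 59 libraries of cultured cells in which pores were opened in the plasma membrane with MLKL, GSDMD or digitonin, a detergent, and the values are TPM, the share of a library's transcripts that a gene takes, scaled for transcript length.

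NIH3T3 cells, a mouse fibroblast line, gave 35 libraries. They were given the dimerizer AP20187 (100 nM, 1 h) as MLKL cells, which carry a human MLKL fragment with a tag labelled 2Fv, in complete or calcium-free DMEM, and as parental cells with no construct. MLKL cells were also given AP20187 after an siRNA named siPKC, against the control siRNA siCTR, and in a p65ko line, against a line named noko. NIH3T3 GSDMD cells carry a mouse GSDMD fragment with a tag labelled HBD and were given 4OHT (50 nM, 2.5 h), and NIH3T3 cells labelled with no construct were given digitonin (55 µg/mL, 3 h). The lung carcinoma line LLC, also from mouse, gave 16 libraries: GSDMD and parental cells with 4OHT, MLKL cells with AP20187, and cells labelled with no construct with digitonin, all at the same doses and times. HT29, from a human colorectal carcinoma, and BxPC3, from a human pancreatic carcinoma, gave 4 libraries each and received digitonin (40 µg/mL, 2 h). Each treated group was compared with untreated libraries of the same cells in the same medium, which was DMEM unless calcium-free. Of the 30 groups, 29 had 2 libraries and siPKC cells with AP20187 had 1, so that group has no SD and borrows its variance from the others. The labels do not say whether libraries of a group came from separate cultures, so the p-values measure the spread between these libraries, which may be technical.

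Collagen chains assemble in threes into a triple helix inside the endoplasmic reticulum, where they are hydroxylated and folded, and are then secreted, trimmed and crosslinked. Fibrillar collagens such as types I, III, V and XI build the fibres that give connective tissue its strength, type IV builds the sheet of basement membranes, type VI forms beaded filaments around cells, and type VII anchors epithelium to the tissue under it. FACIT collagens attach to fibres, type VIII forms networks, type XVII is a transmembrane protein of epithelial hemidesmosomes, and type XVIII belongs to vascular and epithelial basement membranes. Fibroblasts are the main source of types I, III, V and VI.

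Before the collagen values, some labels were compared with marker genes. The 4 LLC libraries of the digitonin experiment are labelled as having no construct, but held 326 and 336 TPM of Gsdmd with digitonin and 333 and 337 TPM without it. LLC GSDMD cells without 4OHT held 376 and 377 TPM and parental LLC cells without 4OHT held 22.6 and 22.6 TPM. Esr1, which encodes the estrogen receptor that 4OHT binds, held 32.7 and 33 TPM in the libraries labelled with no construct and no digitonin, against 1.28 and 1.55 TPM in parental LLC cells. These libraries therefore go against their label, and each resting comparison that uses them is given with and without them. Rela, which encodes p65, averaged 13.84 TPM in untreated p65ko cells and 49.44 TPM in untreated noko cells, and Prkca averaged 7.753 TPM in untreated siPKC cells and 31.85 TPM in untreated siCTR cells, while Prkcd, another protein kinase C gene, averaged 39.08 TPM in siPKC cells and 25.7 TPM in siCTR cells. Of 10 fibroblast markers, 9 reached 1 TPM in NIH3T3 cells and 7 in LLC cells. LLC cells held keratins Krt8 and Krt18 but under 0.5 TPM of Epcam and Cdh1 in every library, whereas all 8 epithelial markers reached 1 TPM in HT29 and in BxPC3 cells. The leukocyte marker Ptprc stayed under 0.5 TPM in every NIH3T3 and LLC library. The 2 libraries of a group correlated at 0.992 to 0.997 across genes. TPM keeps no depth, so the counting error behind low values is unknown.

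Promoter sequences were read from RefSeq (GRCm38.p6), where 34 of the 42 mouse genes had an entry, with 37 start sites. The 250 bases before the start are shown for 4 genes whose changes stand out in the results and whose windows hold no annotated exon. Col11a1 had the largest difference between siPKC and siCTR cells. Col8a1 was among the largest changes with digitonin in NIH3T3 cells and with 4OHT in LLC GSDMD cells. Col11a2 rose in GSDMD cells given 4OHT and with digitonin, in both mouse lines. Col5a3 rose in NIH3T3 GSDMD cells given 4OHT and in LLC cells given digitonin. Capitals mark matches, on either strand, to the GC box, spelled GGGCGG, to the motif spelled CCAAT and to the TATA motif, spelled TATAAA.
Col11a1, chr3:114030290-114030539, plus strand: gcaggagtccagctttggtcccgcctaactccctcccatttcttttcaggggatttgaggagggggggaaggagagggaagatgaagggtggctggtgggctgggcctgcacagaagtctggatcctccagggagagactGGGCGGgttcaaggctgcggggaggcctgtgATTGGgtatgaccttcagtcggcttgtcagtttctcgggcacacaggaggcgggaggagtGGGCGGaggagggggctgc
Col8a1, chr16:57754738-57754987, minus strand: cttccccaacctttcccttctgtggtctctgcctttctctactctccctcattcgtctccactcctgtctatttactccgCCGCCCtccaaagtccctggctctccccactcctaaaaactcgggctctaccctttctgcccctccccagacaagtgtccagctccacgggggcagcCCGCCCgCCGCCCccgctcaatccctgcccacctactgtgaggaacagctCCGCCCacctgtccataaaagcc
Col11a2, chr17:34038888-34039137, plus strand: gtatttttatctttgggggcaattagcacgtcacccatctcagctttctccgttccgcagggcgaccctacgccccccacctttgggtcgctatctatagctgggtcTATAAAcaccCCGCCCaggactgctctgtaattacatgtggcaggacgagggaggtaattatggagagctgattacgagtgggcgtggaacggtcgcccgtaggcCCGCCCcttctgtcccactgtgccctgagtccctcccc
Col5a3, chr9:20815068-20815317, minus strand: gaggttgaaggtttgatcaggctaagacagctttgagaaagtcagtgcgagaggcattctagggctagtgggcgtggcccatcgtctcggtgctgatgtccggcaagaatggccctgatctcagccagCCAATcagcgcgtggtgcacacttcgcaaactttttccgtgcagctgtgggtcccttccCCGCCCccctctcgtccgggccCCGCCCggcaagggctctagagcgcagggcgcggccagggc
A GC box was found in all 4 of these windows. It was found in 22 of the 37 collagen windows (59.5%) and in 32.7% of all 32851 promoter windows of the same length. CCAAT was in 35.1% of collagen windows and 33.8% of all windows, and TATAAA in 10.8% and 12.4%. The AP-1 motif TGACTCA was in 1 collagen window, that of Col6a1 (2.7%), and in 4.46% of all windows. The cyclic AMP motif TGACGTCA was in no collagen window and in 1.55% of all windows. A match describes the letters of these windows and nothing about a factor.

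In untreated NIH3T3 cells 15 collagen genes reached a group mean of 10 TPM, and 16 stayed under 1 TPM in every library of the line. Type I collagen led. Col1a2, the second chain of type I collagen (chr6:4504814-4541544, mm10, GENCODE vM21), held 964 and 966 TPM in untreated parental cells, and Col1a1, the first chain (chr11:94936224-94953042), held 223 and 235 TPM. Both were lowest in the untreated cells of the digitonin experiment, with 479 and 468 TPM of Col1a2 and 161 and 147 TPM of Col1a1, so the resting level differed between experiments. The ratio of Col1a2 to Col1a1 TPM lay between 2.71 and 4.66 over the 35 libraries, although the type I protein holds more of the Col1a1 chain. In the same libraries the type VI chain Col6a1 held 180.2 and 182 TPM, its partner Col6a2 held 119 and 119 TPM, the fibre-attached FACIT collagen Col16a1 held 162 and 165 TPM, and the basement membrane chain Col4a1 held 139 and 142 TPM. Col4a2, Col6a3, Col5a1, Col5a2, Col8a1, Col3a1, Col4a5 and Col4a6 followed between 19.1 and 83.8 TPM, and Col11a1 reached 10 TPM in siPKC cells only. The 16 genes under 1 TPM were Col2a1, Col4a3, Col4a4, Col6a4, Col6a5, Col6a6, Col8a2, Col9a1, Col9a2, Col14a1, Col15a1, Col19a1, Col22a1, Col23a1, Col24a1 and Col25a1, which were also under 1 TPM in every LLC library and were not tested.

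LLC cells had another set. In untreated parental LLC cells Col4a1 held 292 and 274 TPM, Col3a1, the type III chain, held 264 and 256 TPM, Col18a1, the precursor of endostatin, held 139 and 126 TPM, and Col4a2 held 133 and 120.4 TPM. Col1a1 was near 0, at 0.0492 and 0.15 TPM, as were Col1a2, at 0.0748 and 0.342 TPM, and Col6a3. LLC groups also differed from each other at rest. Col5a2 held 10.5 and 9.76 TPM in GSDMD cells, 3.34 and 3.8 TPM in MLKL cells and 0.0805 and 0.0446 TPM in parental cells, all without treatment. Col4a5 was listed at 0 in both untreated GSDMD libraries and held 0.152 and 0.256 TPM in MLKL and 4.8 and 4.75 TPM in parental libraries. The libraries labelled with no construct and no digitonin had 4.58 and 4.51 TPM of Col5a2 and 0 TPM of Col4a5.

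**Figure D1:**
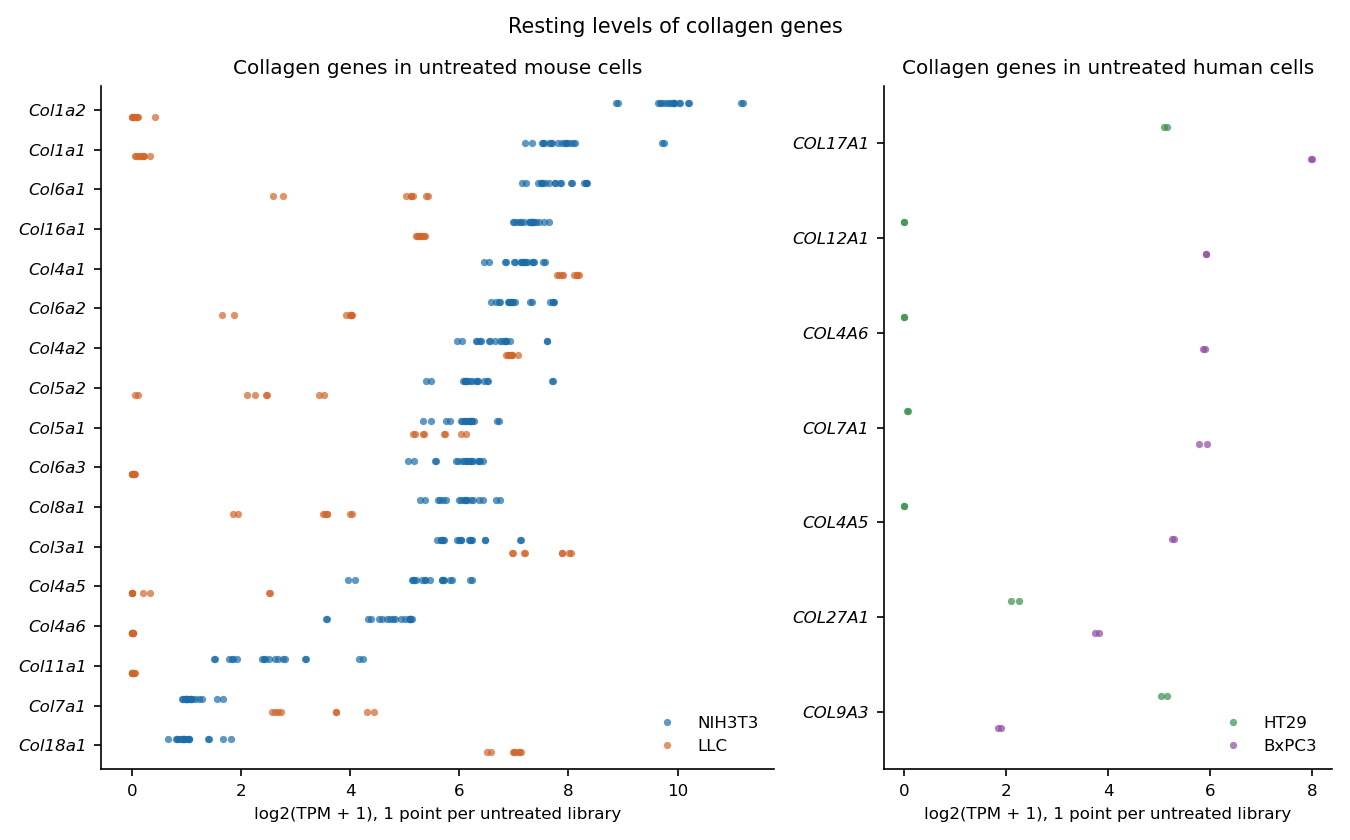
Resting levels as log2(TPM + 1) on the x axis, 1 point per untreated library, for collagen genes that reached a group mean of 10 TPM in an untreated group, NIH3T3 above LLC on the left and HT29 above BxPC3 on the right. Col1a2, Col1a1 and Col6a3 lie far higher in NIH3T3 libraries and Col18a1 in LLC libraries, and COL17A1 is the highest gene in both human lines except that COL9A3 is close to it in HT29.

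Untreated cells labelled with no construct were compared between the lines, averaging the AP20187 or 4OHT experiment with the digitonin experiment. Of 23 collagen genes tested 17 were higher and 6 lower in NIH3T3 than in LLC cells, against a background of 81.7% of all genes tested that passed in either direction, 36.2% higher and 45.4% lower. The threshold throughout is a Benjamini-Hochberg adjusted p under 0.05 over all genes in limma on log2(TPM + 1), a scale that understates changes of low genes. Genes entered a comparison when 2 or more of its libraries reached 1 TPM, so a gene with no library at 1 TPM in one of the groups could have passed only as higher in the other. This held for 11 of the 23 genes here, Col1a2, Col1a1 and Col6a3 among them. Col1a2 differed by 9.27 ± 0.07, Col1a1 by 7.40 ± 0.05, Col6a3 by 5.63 ± 0.05 and Col18a1 by -6.14 ± 0.07. Without the digitonin experiment, and so without the LLC libraries that go against their label, 21 genes passed, with Col1a2 at 9.65, Col1a1 at 7.71, Col6a3 at 6.15 and Col18a1 at -6.08, and with that experiment alone 23 passed. Col5a1, at 0.13 on the log2 scale, was at 0.02 without the digitonin experiment and no longer passed (adjusted p = 0.792 in limma, Benjamini-Hochberg).

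COL17A1, the hemidesmosome collagen, was abundant in both human lines. It held 34.7 and 33.3 TPM in untreated HT29 cells and 249 and 253 TPM in untreated BxPC3 cells. COL9A3, a chain of the FACIT collagen of cartilage, held 34.6 and 31.9 TPM in HT29 and 2.74 and 2.6 TPM in BxPC3 cells. The FACIT collagen COL12A1 held 59.3 and 59.3 TPM, the anchoring collagen COL7A1 54.1 and 59.9 TPM, and the basement membrane chain COL4A6 57.1 and 59 TPM and its partner COL4A5 37.1 and 38.2 TPM in untreated BxPC3 cells. In HT29 cells COL12A1, COL4A5 and COL4A6 were listed at 0 and COL7A1 held 0.0546 and 0.0435 TPM. Of 17 genes tested, 3 were higher and 13 lower in HT29 than in BxPC3 cells, against a background of 80.2%, 43.6% higher and 36.6% lower. Of these 17 genes 11 reached 1 TPM in one line only, COL12A1, COL7A1, COL4A5 and COL4A6 among them. COL9A3 was 3.22 ± 0.08 higher and COL17A1 differed by -2.85 ± 0.04. With either BxPC3 untreated library left out, genes that reached 1 TPM in BxPC3 only kept 1 such library and were not tested.

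The siRNA named siPKC was followed at rest by higher collagen RNA. Summed over all 42 genes, collagens made up 5042 and 4951 TPM in untreated siPKC libraries, against 2134 and 2216 TPM in untreated siCTR libraries. Of 22 genes tested 17 were higher and 2 lower in siPKC cells, against a background of 45.6%, 23.9% higher and 21.7% lower, and their median was 0.63 on the log2 scale, while the median of all genes was 0.000593. In bulk RNA more RNA per cell and more of the cells that make it cannot be told apart.

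The fibrillar chains Col11a1, Col1a1, Col5a2 and Col1a2 had the 4 largest log2 differences, and the classes were not tested against each other. Col11a1, a minor fibrillar chain that regulates fibre diameter (chr3:114030540-114220718), held 16.8 and 17.9 TPM in siPKC cells and 2.58 and 2.79 TPM in siCTR cells, a difference of 2.31 ± 0.06 (log2, SE; adjusted p = 4.31e-17, limma with Benjamini-Hochberg). Col1a1 held 867 and 841 TPM in siPKC cells, against 185 and 198 TPM in siCTR cells, a difference of 2.15 ± 0.06 (log2, SE; adjusted p = 1.54e-16, limma with Benjamini-Hochberg). Col5a2, the type V chain that co-assembles with type I, held 207 and 209 TPM in siPKC cells, against 65.8 and 67.7 TPM in siCTR cells, 1.63 ± 0.04. In each of these genes both siPKC libraries lay above both siCTR libraries, with gaps many times the spread within a group. The genes were picked for large passing differences, so this and like statements below describe values and are no further support. Col1a2 held 2349.9 and 2297 TPM in siPKC cells and 793 and 822 TPM in siCTR cells, 1.52 ± 0.03, a smaller difference than that of Col1a1. The ratio of Col1a2 to Col1a1 was 2.71 and 2.73 in siPKC cells, outside its range of 4.14 to 4.3 in siCTR cells and the lowest of all untreated NIH3T3 groups.

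The fibrillar Col3a1 held 139.8 and 137 TPM in siPKC cells and 88.3 and 87.5 TPM in siCTR cells (0.65 ± 0.03), less than some type IV and VI chains. Of the type IV chains, Col4a5 differed by 0.87, Col4a2 by 0.71 and Col4a1 by 0.38 on the log2 scale. The type VI chains did not move together: Col6a2 and Col6a1 differed by 0.80 and 0.73, and Col6a3, at 65.4 and 67.2 TPM in siPKC and 68.7 and 73.7 TPM in siCTR cells, by -0.10, which did not pass (adjusted p = 0.0511 in limma, Benjamini-Hochberg). Col10a1, one of the higher genes, had no siCTR library at 1 TPM and could have passed only as higher. The 2 genes that were lower were Col17a1, at -0.51, and Col9a3, at -0.42. Fibroblast markers moved in the same comparison, 6 of 9 higher and 2 lower, with Fn1, which encodes fibronectin, up by 1.04 and the lower ones Dcn, which encodes decorin, at -0.80 and Vim, at -0.40. The part of these markers in the result was not tested.

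Untreated p65ko cells differed from noko cells in both directions. Of 23 genes tested 12 were higher and 6 lower, against a background of 47%, 31.8% higher and 15.2% lower. Col9a3 held 5.77 and 5.76 TPM in p65ko and 2.44 and 2.22 TPM in noko cells, a difference of 1.02 ± 0.13 (log2, SE; adjusted p = 2.24e-06, limma with Benjamini-Hochberg). Col18a1 held 2.2 and 2.53 TPM in p65ko and 0.906 and 0.996 TPM in noko cells (0.78 ± 0.13), and Col27a1, a fibrillar collagen of cartilage, 8.39 and 8.84 TPM in p65ko cells and 5.42 and 5.28 TPM in noko cells (0.60 ± 0.07). These 3 genes are expressed at low levels, and in each the groups did not overlap. Col18a1 had no noko library at 1 TPM and entered the test through the p65ko libraries, so only a higher level in p65ko cells could have been called. That difference also passed with no filter.

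Among abundant genes the type VI chains Col6a1, Col6a2 and Col6a3 were higher and the type IV chains Col4a1, Col4a2 and Col4a5 lower in p65ko cells, while the type IV chain Col4a6 differed by -0.026 and did not pass. Col6a3 held 82.5 and 79.9 TPM in p65ko cells and 60.4 and 62.2 TPM in noko cells (0.40 on the log2 scale), with Col6a2 and Col6a1 at 0.36 and 0.31. Col4a1 held 129 and 127 TPM in p65ko cells and 162 and 165 TPM in noko cells (-0.35), with Col4a2 and Col4a5 at -0.29 and -0.17. Col16a1 was also lower, at 133 and 128 TPM in p65ko cells and 168 and 175 TPM in noko cells (-0.39), as was Col3a1 (-0.28). Col1a2 was 0.27 higher, while Col1a1 differed by 0.057 and did not pass. Col4a1 and Col4a2 start within overlapping annotated bases on opposite strands and Col9a3 and Col18a1 overlap other genes, so reads of these genes may be shared with a neighbour. The fibroblast markers were 5 higher and 3 lower of 9. Their part was not tested, and the labels do not say whether p65ko and noko are single clones.

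**Figure D2:**
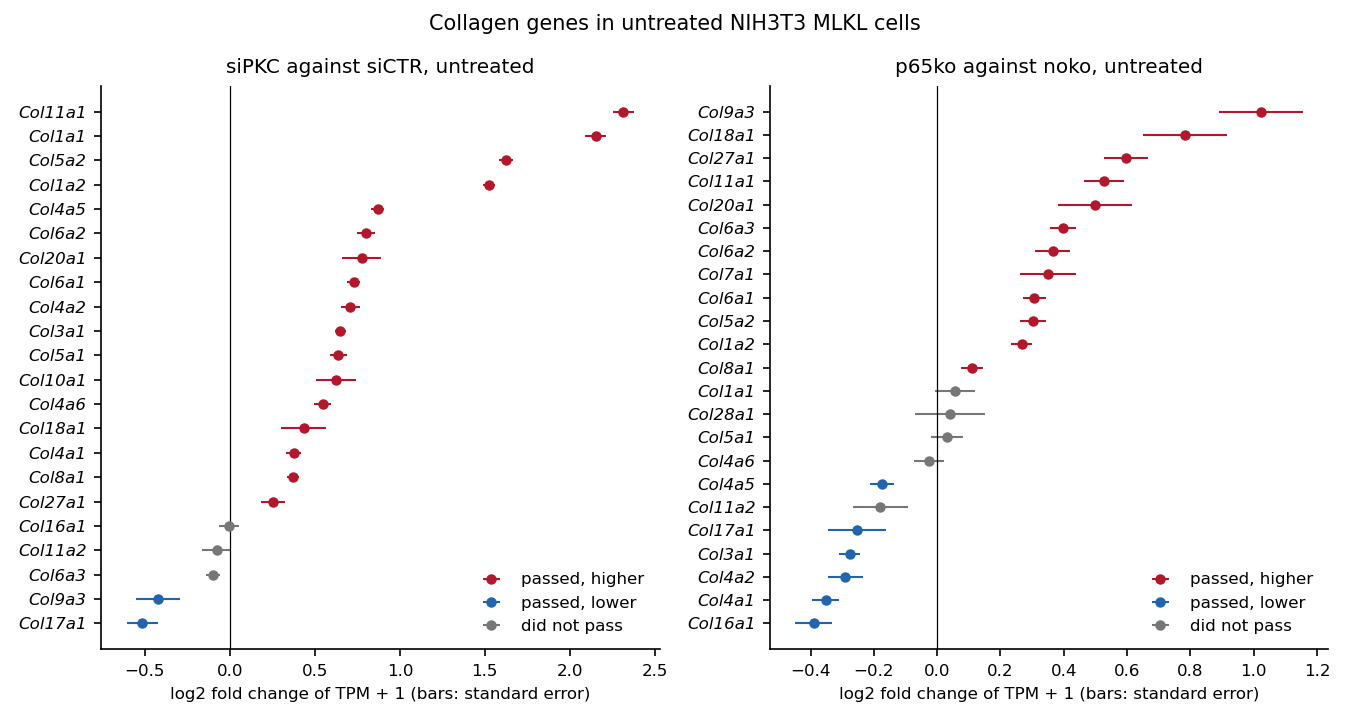
Log2 fold changes of TPM + 1 with standard errors (x axis) for each tested collagen gene, siPKC against siCTR on the left and p65ko against noko on the right, all untreated. Col11a1, Col1a1, Col5a2 and Col1a2 lie above 1.5 with siPKC, and the type IV genes Col4a1, Col4a2 and Col4a5 lie above 0 with siPKC and below 0 with p65ko.

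AP20187 was given to NIH3T3 MLKL cells in 6 settings and to parental cells, and the collagens did not respond alike. In parental NIH3T3 cells 0 of 19 tested genes passed, in either direction, in limma (background 0.304%, 0.0174% higher and 0.287% lower), with 1 at an unadjusted p under 0.05. In MLKL cells in complete medium 14 of 22 were higher and 0 lower, against a background of 32.3%, 15.8% higher and 16.5% lower. Col6a3, a type VI chain (chr1:90765923-90843971), held 72.4 and 75.7 TPM with AP20187 and 46.1 and 46.7 TPM without it, a change of 0.66 ± 0.04 (log2, SE; adjusted p = 3.67e-11, limma with Benjamini-Hochberg). Col1a1 held 239 and 283 TPM with AP20187 and 182 and 187 TPM without it (0.49 ± 0.06), and Col8a1, a short-chain network collagen, 68.5 and 66.9 TPM with AP20187 and 51.3 and 53.4 TPM without it (0.36 ± 0.04). Treated and untreated libraries did not overlap in these genes. Col4a2, Col11a1, Col5a1, Col6a1 and Col4a1 followed, at 0.28 to 0.33 on the log2 scale. The response exceeded that of parental cells for 13 of 22 genes (background 20.5%, 12.4% higher and 8.1% lower), with the difference largest for Col6a3, at 0.73.

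The untreated MLKL libraries of this experiment were themselves low. Col6a3 held 46.1 and 46.7 TPM in them, against 75 and 73.1 TPM in untreated MLKL cells in calcium-free medium and 71.6 and 69.2 TPM in untreated parental cells. With the parental untreated libraries in place of the MLKL ones, Col6a3 changed by 0.07 and no longer passed, Col8a1 and Col4a1 turned to -0.01 each, and the split of passing genes was 10 higher and 2 lower. Of 9 fibroblast markers 2 rose and 0 fell with AP20187 in the same libraries, Fn1 by 1.01 on the log2 scale. Whether the treatment or the untreated libraries set the rise was not tested.

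In calcium-free medium 0 of 22 genes passed in either direction in limma (background 5.69%, 2.27% higher and 3.42% lower), with 2 at an unadjusted p under 0.05. Col6a3 held 79.2 and 80.9 TPM with AP20187 and 75 and 73.1 TPM without it. The response was smaller than in complete medium for 10 genes and larger for 0 (background 21.9%, 10.8% higher and 11.1% lower), with Col6a3 at -0.55 and Col1a1 at -0.47. The untreated cells already differed between the media: of 22 genes 15 were higher and 1 was lower without calcium (background 36.3%, 8.55% higher and 27.7% lower), with Col6a3 at 0.66, Col1a1 at 0.57 and the lower gene, Col8a1, at -0.11. With centring to a common median, or with the trend by transcript length removed, 15 were higher and 0 lower. Both differences share the untreated MLKL libraries.

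In the siRNA and knockout experiments no collagen passed as higher with AP20187 until libraries were set to a common median. In siCTR cells AP20187 was followed by 0 higher and 9 lower of 20 genes (background 65.6%, 13.7% higher and 51.8% lower), and in noko cells by 0 higher and 13 lower of 22 (background 66%, 10.6% higher and 55.5% lower). The median of all genes itself fell, by 0.189 in siCTR and 0.216 in noko cells, against collagen medians of -0.12 and -0.21 on the log2 scale. With libraries set to a common median the splits were 5 higher and 3 lower in siCTR cells and 5 higher and 1 lower in noko cells. Col3a1 in siCTR cells fell beyond that shift. It held 56.6 and 57.2 TPM with AP20187 and 88.3 and 87.5 TPM without it, -0.62 ± 0.03 (log2, SE; adjusted p = 8.93e-13, limma with Benjamini-Hochberg), and was still lower after centring. Col1a2, at 646 and 633 TPM with AP20187 and 793 and 822 TPM without it (-0.34 ± 0.03), and Col6a3, at 60 and 56.6 TPM with AP20187 and 68.7 and 73.7 TPM without it (-0.28 ± 0.04), were also lower after centring. In noko cells Col6a3 fell to 47.1 and 45.5 TPM, against 60.4 and 62.2 TPM without AP20187 (-0.40 ± 0.04), while Col1a2 and Col3a1, at -0.30 and -0.28, no longer passed after centring.

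The difference from the first experiment was tested after these values were seen. The MLKL response was higher than the siCTR response for 14 of 22 genes (background 43.6%, 36.2% higher and 7.39% lower) and higher than the noko response for 16 (background 44.4%, 39.4% higher and 4.99% lower), with 0 lower in both. The all-gene median of these differences was 0.177 against siCTR and 0.206 against noko cells, and with centring 10 and 8 genes passed. Col6a3 differed by 0.95 against siCTR and 1.06 against noko cells. The experiments differ in siRNA or knockout handling and in their untreated libraries, which cannot be told apart here.

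In siPKC cells 0 genes were higher and 12 lower of 22 (background 48.1%, 10.5% higher and 37.5% lower, all-gene median -0.138). One of the lower genes, Col9a3, reached 1 TPM in the untreated libraries only and did not pass with no filter (adjusted p = 0.0513 in limma, Benjamini-Hochberg). In p65ko cells 0 were higher and 10 lower of 23 (background 59.4%, 8.99% higher and 50.4% lower, all-gene median -0.188). After centring the splits were 1 higher and 4 lower in siPKC cells and 7 higher and 0 lower in p65ko cells. Leaving out any of the 4 p65ko libraries left 3 to 6 genes that passed, and leaving out siPKC untreated replicate 2 left 7. Col3a1 held 114 TPM in the single siPKC library with AP20187 and 139.8 and 137 TPM in those without it (-0.27). Its fall was smaller than in siCTR cells by 0.34 on the log2 scale, the only 1 of 22 genes whose response differed (background 8.29%, 4.96% higher and 3.33% lower), and it did not pass when fitted on the libraries of that comparison alone. Between p65ko and noko cells the response differed for Col6a3, by 0.30, and Col3a1, by 0.19 (background 4.1%, 2.34% higher and 1.76% lower), and 1 gene passed when noko untreated replicate 2, noko AP20187 replicate 2, p65ko untreated replicate 1 or either p65ko AP20187 library was left out. Col6a3 held 74.7 and 76.8 TPM with AP20187 and 82.5 and 79.9 TPM without it in p65ko cells. Col3a1 changed by -0.093 in p65ko cells, a value that turned to 0.11 with centring and to 0.09 with the trend by transcript length removed.

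**Figure D3:**
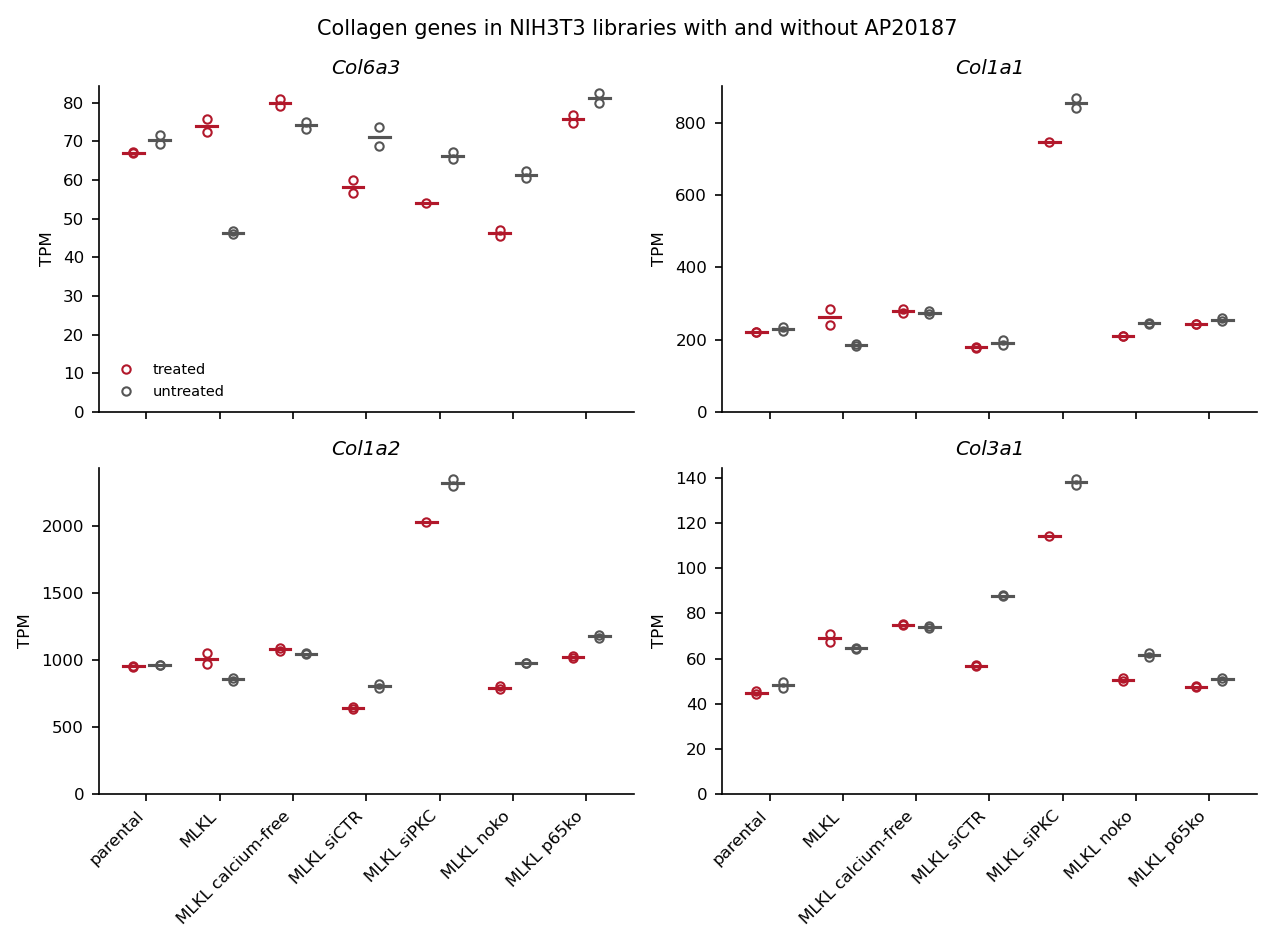
TPM of Col6a3, Col1a1, Col1a2 and Col3a1 (y axes from 0) in NIH3T3 libraries, AP20187 left of untreated, with a circle per library and a line at the group mean. The MLKL pair has its treated libraries higher and the siCTR and noko pairs have theirs lower on this scale. Col1a1 in siCTR cells did not pass. After centring Col1a1 in noko cells turned to 0.02, and Col1a2 and Col3a1 in noko cells no longer passed. siPKC cells hold the most Col1a1, Col1a2 and Col3a1 with or without AP20187.

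NIH3T3 GSDMD cells given 4OHT had a few low collagens that rose and an otherwise mixed response. No parental NIH3T3 cells were given 4OHT, so effects of 4OHT itself and of GSDMD cannot be told apart here. Of 24 genes 8 were higher and 6 lower (background 78.6%, 20% higher and 58.6% lower). The all-gene median was -0.295, and the split became 18 higher and 1 lower after centring. Col5a3, a minor type V chain (chr9:20770050-20815067), held 1.97 and 2.46 TPM with 4OHT and 0.209 and 0.155 TPM without it, 1.44 ± 0.09 (log2, SE; adjusted p = 1.18e-11, limma with Benjamini-Hochberg). Col11a2, the second type XI chain (chr17:34039437-34066685), held 4.29 and 4.16 TPM with 4OHT and 2.23 and 1.83 TPM without it (0.79 ± 0.09), and Col20a1, a FACIT collagen, 4.86 and 5.79 TPM with 4OHT and 2.63 and 3.07 TPM without it (0.71 ± 0.12). Each of the 3 had both treated libraries above both untreated ones, at levels under 10 TPM. Col5a3 had no untreated library at 1 TPM, so only a rise could have been called for it here, and the same held for Col12a1. Both rises also passed with no filter.

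Col12a1 rose by 0.61 and Col8a1 and Col4a6 by 0.22 and 0.24. Col17a1 held 2.32 and 2.46 TPM with 4OHT and 3.92 and 4.58 TPM without it (-0.63 ± 0.09) and was lower under every scaling tried. The falls of the abundant Col1a2 (736 and 779 TPM with 4OHT and 934 and 900.5 TPM without it, -0.28) and Col6a3 (-0.34) were close to the all-gene median, and those of Col4a2 and Col5a2 turned to 0.08 and 0.11 after centring. Col6a3 still passed as lower with the length trend removed, but not after centring. Of 9 fibroblast markers 5 were higher and 3 lower with 4OHT, and their part was not tested.

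Digitonin in NIH3T3 cells was followed by 12 higher and 2 lower of 21 genes (background 73.5%, 39.3% higher and 34.2% lower), a split of 9 and 5 after centring. Col4a5, the X-linked basement membrane chain (chrX:141475385-141689234), held 30.4 and 31.3 TPM with digitonin and 16 and 14.5 TPM without it, 0.97 ± 0.04 (log2, SE; adjusted p = 1.95e-15, limma with Benjamini-Hochberg). Col8a1 held 70.3 and 73.1 TPM with digitonin and 37.8 and 40.3 TPM without it (0.86 ± 0.04), and Col11a2 3.5 and 3.21 TPM with digitonin and 1.81 and 1.64 TPM without it (0.68 ± 0.09). Col4a6 rose by 0.67 ± 0.05. The treated libraries of these 4 genes were all above the untreated ones, and the 4 were higher under each scaling.

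Other rises with digitonin changed sign with a correction for transcript length. Collagen transcripts are long, with a median longest transcript of 6083 bases against 3003 bases over all mouse rows with a length. With the trend by length removed the split was 4 higher and 11 lower, and Col6a3 (0.45), Col11a1 (0.50), Col5a2 (0.34), Col4a2 (0.32), Col4a1 (0.21) and Col5a1 (0.15) turned to values between -0.44 and -0.05. Col1a2 held 441 and 428 TPM with digitonin and 479 and 468 TPM without it (-0.12). Col1a1 and Col3a1 did not pass, at -0.041 and -0.049, but both passed as lower with centring and with the length trend removed. Of 9 fibroblast markers 6 were higher and 3 lower with digitonin, and their part was not tested.

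In LLC GSDMD cells given 4OHT collagens fell broadly. Summed collagen was 608.9 and 618.8 TPM with 4OHT and 802.4 and 806.7 TPM without it. Of 13 genes 1 was higher and 11 lower (background 82%, 27.9% higher and 54% lower), with a collagen median of -0.56 on the log2 scale, against -0.249 over all genes. Col8a1 held 4.69 and 4.95 TPM with 4OHT and 10.3 and 10.9 TPM without it, -0.99 ± 0.06 (log2, SE; adjusted p = 7.15e-09, limma with Benjamini-Hochberg). Col3a1 (chr1:45311538-45349706) held 65 and 65.1 TPM with 4OHT and 126 and 125 TPM without it (-0.94 ± 0.03), and Col16a1 19.9 and 20.9 TPM with 4OHT and 36.1 and 36.6 TPM without it (-0.80 ± 0.05). In these 3 genes both treated libraries lay far below both untreated ones.

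The type VI chains Col6a2 and Col6a1 fell by 0.72 and 0.65, Col5a1 by 0.63, Col5a2 by 0.56 and Col18a1 by 0.50 on the log2 scale. Col4a1, the most abundant collagen of these cells, held 263 and 268 TPM with 4OHT and 286 and 284 TPM without it (-0.10), less than the all-gene median, and turned to 0.05 after centring. The gene that rose was Col11a2, at 1.62 and 1.48 TPM with 4OHT and 0.389 and 0.312 TPM without it (0.92 ± 0.12). It entered the test through the 4OHT libraries alone, since neither untreated library reached 1 TPM, so it could not have been called lower. With no filter it also passed as higher. Of the fibroblast markers, 1 of 6 rose and 4 fell, Sparc, a collagen-binding matrix protein, by 2.14 on the log2 scale. Their part was not tested.

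Parental LLC cells given 4OHT showed 2 higher and 0 lower of 12 genes (background 0.864%, 0.819% higher and 0.045% lower). Col4a2 held 144 and 152 TPM with 4OHT and 133 and 120.4 TPM without it (0.22), and Col4a1 311 and 319.6 TPM with 4OHT and 292 and 274 TPM without it (0.16). Neither passed after centring, and neither passed without parental untreated replicate 2 or either treated library. The 4OHT response of GSDMD cells was lower than that of parental cells for 11 of 14 genes and higher for 1 (background 71.8%, 22.4% higher and 49.4% lower), with Col3a1 at -1.0010, Col16a1 at -1.0003, Col8a1 at -0.96 and Col11a2 at 0.85. The all-gene median of this difference was -0.276.

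Digitonin in LLC cells, in the libraries that go against their label, was followed by 5 higher and 5 lower of 13 genes (background 52.5%, 20.3% higher and 32.2% lower), and 6 passed in all without digitonin replicate 1. Col11a2 held 3.96 and 3.82 TPM with digitonin and 0.75 and 0.921 TPM without it, 1.41 ± 0.12 (log2, SE; adjusted p = 1.78e-06, limma with Benjamini-Hochberg). Here too no untreated library reached 1 TPM, and only a rise could have been called. The rise also passed with no filter. Col5a3 held 11.8 and 10.9 TPM with digitonin and 4.89 and 5.07 TPM without it (1.05 ± 0.09), and Col6a1 54 and 54.4 TPM with digitonin and 42.1 and 40.7 TPM without it (0.38 ± 0.06). The groups did not overlap in these 3 genes. Col6a2 rose by 0.37, and Col4a2 and Col3a1 changed by -0.20 and -0.16. In LLC MLKL cells given AP20187 only Col18a1 passed of 12 genes (background 7.56%, 5.48% higher and 2.08% lower), at 159 and 154 TPM with AP20187 and 135 and 135 TPM without it (0.21 ± 0.04), and it passed in only 1 of the 4 fits that left out a library. LLC MLKL libraries with AP20187 share a replicate number in their titles. No parental LLC cells were given AP20187, so effects of AP20187 itself and of MLKL cannot be told apart in them.

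**Figure D4:**
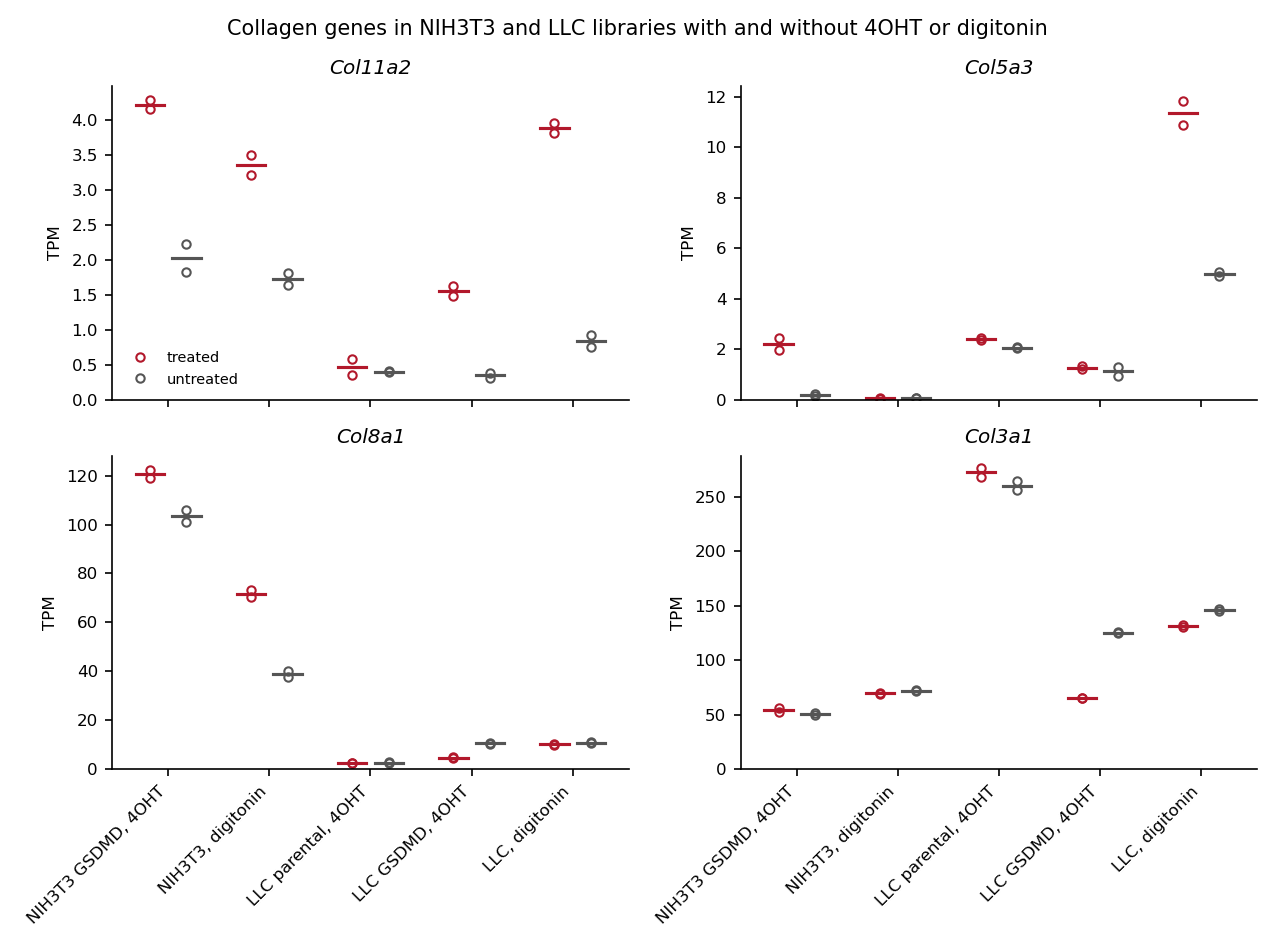
TPM of Col11a2, Col5a3, Col8a1 and Col3a1 (y axes from 0) in libraries given 4OHT or digitonin left of their untreated libraries, with a circle per library and a line at the group mean. Col11a2 is higher in all treated pairs but parental LLC, where the points overlap, and Col8a1 is higher with digitonin in NIH3T3 and lower with 4OHT in LLC GSDMD libraries.

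In the human lines digitonin was tested at 40 µg/mL for 2 h. In HT29 cells 0 of 7 genes were higher and 3 lower (background 60.6%, 16.5% higher and 44% lower, all-gene median -0.164), a split that became 2 and 0 after centring. COL9A3 held 25.3 and 25.5 TPM with digitonin and 34.6 and 31.9 TPM without it (-0.37), COL4A2 1.52 and 1.51 TPM with digitonin and 2.66 and 2.1 TPM without it (-0.42), and COL17A1 28.8 and 30.6 TPM with digitonin and 34.7 and 33.3 TPM without it (-0.19). None of the 3 passed after centring. Without HT29 digitonin replicate 1 only 1 gene passed.

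In BxPC3 cells 6 were higher and 4 lower of 17 (background 80.6%, 23.7% higher and 56.9% lower, all-gene median -0.37), and 14 were higher and 1 lower after centring. COL1A1, low at rest, held 8.29 and 9.09 TPM with digitonin and 1.65 and 1.82 TPM without it, 1.82 ± 0.10 (log2, SE; adjusted p = 2.64e-06, limma with Benjamini-Hochberg). COL11A2 held 2.42 and 1.87 TPM with digitonin and 0.252 and 0.218 TPM without it (1.34 ± 0.11). It reached the 1 TPM needed for the test in digitonin libraries only, and also passed with no filter. COL8A1 was lower, at 2.64 and 1.88 TPM with digitonin and 4.88 and 5.29 TPM without it (-0.91 ± 0.12). The groups did not overlap in these 3 genes and their direction held after centring. COL18A1 rose by 0.38 and COL12A1 by 0.25, while COL4A6 (-0.40), COL8A2 (-0.30) and COL5A1 (-0.21) turned to 0.03, 0.12 and 0.22 after centring. COL17A1, the most abundant collagen of the line, did not pass (-0.052). All 3 fibroblast markers tested in these libraries were higher with digitonin, and their part was not tested.

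Passing arms were counted over the 15 treated arms for Col11a2, Col5a3, Col17a1 and Col1a2, and other collagens had like counts. Col3a1 and Col5a1 were each lower in 6 arms and higher in 2. Col4a1 was lower in 6 and higher in 3, and Col6a1 higher in 4 and lower in 3. Of all genes tested, 34.2% to 58.6% were lower in the siCTR, siPKC, noko, p65ko, NIH3T3 GSDMD and NIH3T3 digitonin arms. In the GSDMD and digitonin arms of both mouse lines 20% to 39.3% were higher. Col11a2 was higher in 4 of the 11 arms where it was tested and lower in 0, these being GSDMD and digitonin in both mouse lines. In both LLC arms among them, and in the 1 human arm where COL11A2 was tested and higher, no untreated library reached 1 TPM. The filter there admitted only a rise. With no filter Col11a2 was higher in the same 4 arms of 13 and lower in 0, and COL11A2 in BxPC3 cells was also still higher. That fit used the same libraries and gave the same log2 changes, so it is no further support. A gene under 1 TPM at rest also has little room to fall on the log2(TPM + 1) scale. With centring, and likewise with the length trend removed, Col11a2 was higher in 5 of 11 arms, the added one being noko cells given AP20187. Col5a3 was higher in 2 of 5 arms and lower in 0, and in the NIH3T3 GSDMD arm the filter likewise admitted only a rise. With no filter Col5a3 was higher in the same 2 arms, of 13 tested, and lower in 0, with the same limits. With centring it was higher in 3 of 5 arms, the added one being LLC GSDMD cells given 4OHT, and with the length trend removed in 2. Col17a1 was lower in 5 of 9 arms and higher in 0, but with centring, and likewise with the length trend removed, it was lower in 2, NIH3T3 GSDMD cells given 4OHT and NIH3T3 cells given digitonin. Col1a2 was lower in 6 of 9 arms and higher in 1, and with centring it was lower in 2, siCTR cells given AP20187 and NIH3T3 cells given digitonin. With the length trend removed Col1a2 was lower in 3 arms. These arms have separate untreated libraries, and their responses to GSDMD and digitonin were not tested against each other.

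**Figure D5:**
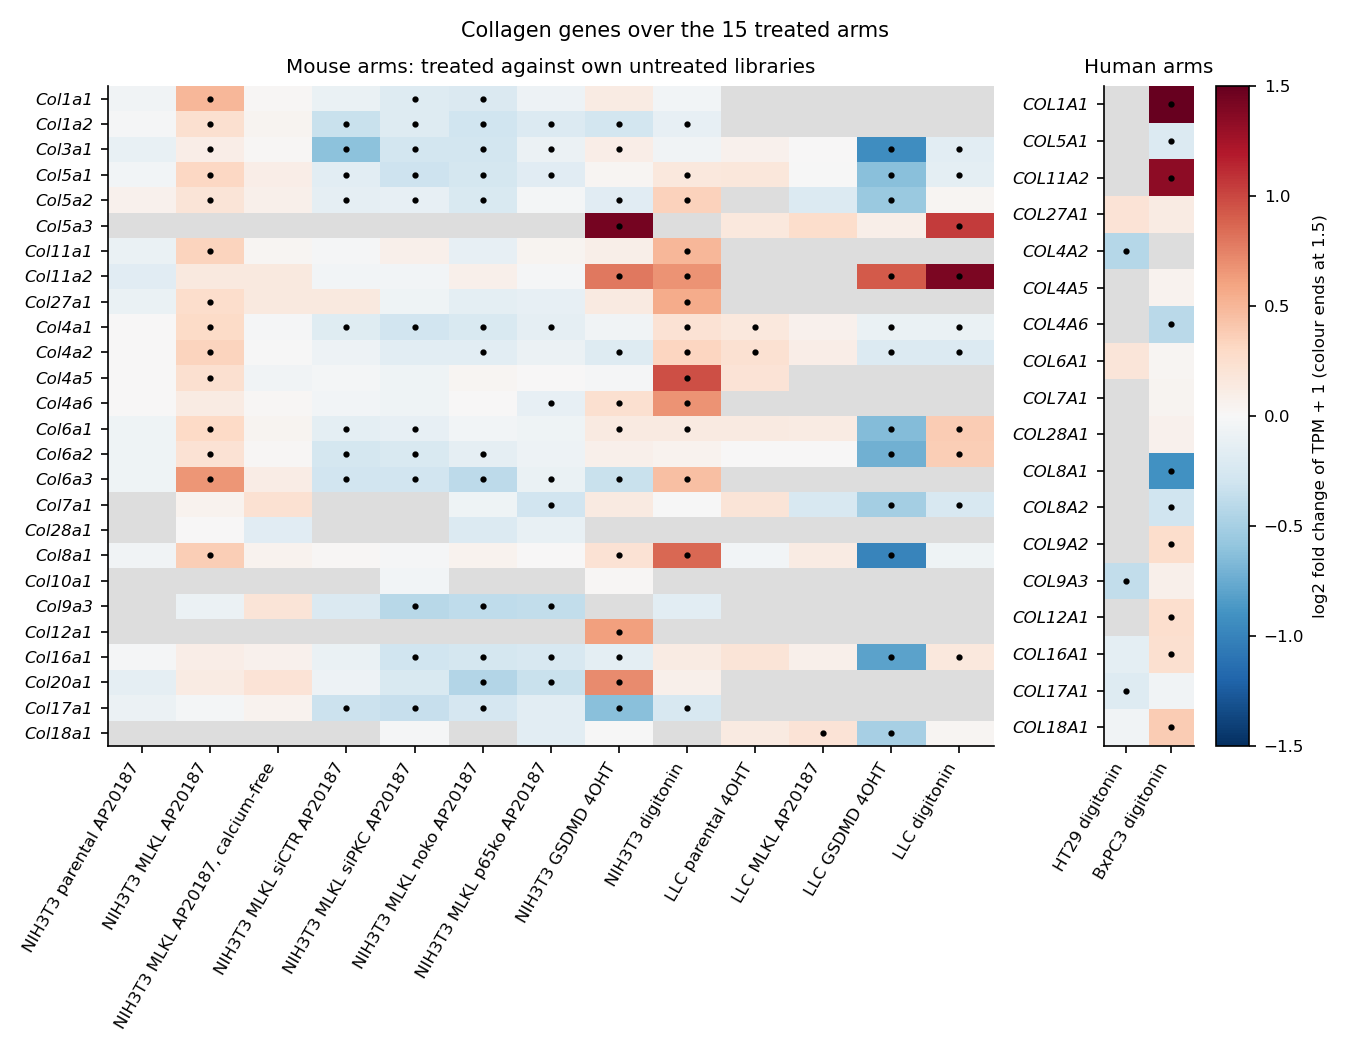
Log2 fold changes of TPM + 1 (colour, red higher and blue lower in treated libraries) for collagen genes in rows and the 15 treated arms in columns, with a dot where a gene passed and grey where it was not tested. Col11a2 is red with a dot in the GSDMD and digitonin columns of both mouse lines. No gene passed as higher in the siCTR, siPKC, noko and p65ko columns, and with centring 5, 1, 5 and 7 genes passed as higher in them.

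Genes that handle collagen were followed beside the collagens. In untreated siPKC cells 13 of 18 genes of modification, folding and export were higher and 0 lower than in siCTR cells, with Serpinh1, the collagen chaperone HSP47, at 1.16 and P4ha3, a prolyl hydroxylase subunit, at 1.32. Of the processing and crosslinking genes 8 of 10 were higher and 1 lower, the lower one being the lysyl oxidase Loxl2 (-0.67). Mmp14, a membrane-bound collagenase, was higher by 1.16. In p65ko cells Loxl2 and Loxl4, both crosslinking enzymes, were higher than in noko cells by 1.96 and 1.45.

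In LLC GSDMD cells given 4OHT 14 of 19 modification, folding and export genes fell and 2 rose, and 6 of 7 processing and crosslinking genes fell and 1 rose. Plod1, a lysyl hydroxylase, changed by -1.0014 on the log2 scale and P4ha3 by -1.07. Timp2, an inhibitor of matrix proteases, changed by -1.43. In NIH3T3 cells given digitonin Lox rose by 0.81 and Loxl2 fell by 1.27, while Timp1, another protease inhibitor, rose by 1.31. In BxPC3 cells digitonin was followed by higher MMP10 and MMP3, matrix proteases, at 3.05 and 1.87, and lower SERPINH1 at -1.49. These gene lists were chosen with earlier results of these data known, and their counts share the backgrounds given above.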

How the data were processed

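RNA sequencing of 59 libraries was deposited as TPM values for all genes, which the authors made with Salmon on mm10 for the mouse and hg19 for the human lines, per the submitters' processing notes. Salmon's version and index, and how genes were made from transcripts, were not given in the sources used here. No counting interval could be given, since TPM keeps no depth.

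The deposited TPM were tested with limma 3.58.1 in R 4.3.3 as log2(TPM + 1), with a mean-variance trend and no replicate block. There was 1 model for NIH3T3, 1 for LLC and 1 for both human lines, each over all groups, so that groups of 2 shared an estimate of the spread. Genes entered a comparison when 2 or more of its libraries reached 1 TPM. The threshold was an adjusted p of 0.05 (Benjamini-Hochberg, over all genes in the comparison). There were 25 planned comparisons, 15 of treatments, 5 of untreated cells and 5 of differences between responses, and 2 more differences added after values were seen. The fitting was tested on simulated data, where the smallest changes were often missed. For BxPC3 cells given digitonin and NIH3T3 MLKL cells given AP20187, a larger share of calls was false than the threshold allows. For LLC GSDMD cells given 4OHT it was not. Each was a single run with far fewer changed genes than passed in the data. These shares therefore need not hold for the data and do not rank the comparisons.

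The collagen genes, the other gene lists and the tests were chosen with earlier results of these data known. Named genes are those past the threshold with up to the 8 largest changes in a comparison, a set of 11 abundant or widely studied collagens, and, of the other lists, the 3 largest changes. Genes that make up a count of 5 or fewer, and genes named for not passing, were chosen after their values were seen. Alternatives were a pseudocount of 0.1, no filter, fewer libraries in the fit, a replicate block, libraries set to a common median, removal of the trend by transcript length (mouse only), and leaving out each library. Alternatives added after seeing the data replaced the untreated MLKL libraries by parental ones and split the comparison of the mouse lines by experiment.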

Additional observations from a re-analysis of the deposited data

Results flagged for a closer look

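Responses that differed between groups by a test of the difference itself are listed here, as log2 differences from limma with Benjamini-Hochberg adjustment. The AP20187 response of MLKL cells differed from that of parental NIH3T3 cells for 13 collagen genes, Col6a3 by 0.73, Col1a1 by 0.54 and Col11a1 by 0.43. In calcium-free against complete medium it differed for 10 genes, Col6a3 by -0.55, Col1a1 by -0.47 and Col4a2 by -0.34. Against siCTR cells it differed for 14 genes, Col6a3 by 0.95, Col3a1 by 0.72 and Col1a1 by 0.59, and against noko cells for 16 genes, Col6a3 by 1.06, Col1a1 by 0.71 and Col5a1 by 0.58. All 4 of these differences use the same untreated and treated MLKL libraries in complete medium.

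Between siPKC and siCTR cells the response differed for 1 gene, Col3a1, by 0.34, and between p65ko and noko cells for 2 genes, Col6a3 by 0.30 and Col3a1 by 0.19. In LLC cells the 4OHT response of GSDMD cells differed from that of parental cells for 12 genes, Col3a1 by -1.001, Col16a1 by -1.0003 and Col8a1 by -0.96.

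A signal outside the comparisons was found in the LLC libraries labelled with no construct and no digitonin, where Gsdmd averaged 335.2 TPM and Esr1 averaged 32.88 TPM, both above the parental LLC libraries.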

How the results depend on the processing

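Resting differences with siPKC, p65ko and calcium-free medium kept their counts within 1.5 times under every alternative run. With libraries set to a common median, these log2 changes of genes that had passed as lower turned positive. siCTR cells given AP20187 had Col4a1 0.00053, Col5a1 0.033, Col6a1 0.043 and Col5a2 0.046. In siPKC cells the value was Col5a2 0.00042. In noko cells the values were Col1a1 0.016, Col4a1 0.0063, Col4a2 0.075, Col5a2 0.00298 and Col6a2 0.10, and in p65ko cells Col1a2 0.0035, Col5a1 0.043, Col4a1 0.077, Col4a6 0.081 and Col3a1 0.11. NIH3T3 GSDMD cells given 4OHT had Col4a2 0.079 and Col5a2 0.11. LLC GSDMD cells had Col4a1 0.047, and BxPC3 cells given digitonin COL4A6 0.025, COL8A2 0.12 and COL5A1 0.22. In NIH3T3 cells given digitonin a rise turned to Col6a1 -0.0197. Negative changes that had not passed became positive and passed for Col6a1 in noko cells (0.20), Col5a2 (0.17) and Col6a1 (0.15) in p65ko cells and Col4a1 in NIH3T3 GSDMD cells (0.22).

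With the trend by transcript length removed, changes that had passed as lower turned positive as follows. siCTR cells given AP20187 had Col6a1 0.0805 and Col5a2 0.035. In siPKC cells the value was Col6a1 0.034. In noko cells the values were Col4a2 0.037 and Col6a2 0.093, and in p65ko cells Col4a1 0.032, Col4a6 0.034 and Col3a1 0.094. NIH3T3 GSDMD cells given 4OHT had Col4a2 0.038 and Col5a2 0.061. In NIH3T3 cells given digitonin rises turned to Col11a1 -0.051, Col6a3 -0.23, Col5a2 -0.11, Col4a1 -0.24, Col4a2 -0.12 and Col5a1 -0.44. Some named genes that had not passed did so with the sign turned. Col6a1 in noko cells (0.21), Col5a2 (0.13) and Col6a1 (0.16) in p65ko cells and Col4a1 in NIH3T3 GSDMD cells (0.17) passed as higher. Col6a2 in NIH3T3 cells given digitonin (-0.18) passed as lower. Against parental untreated libraries, MLKL cells given AP20187 had Col8a1 -0.0067 and Col4a1 -0.0053, where both had passed as higher.

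Counts of passing genes moved as follows. With centring there were 5 in siPKC and 6 in noko cells given AP20187, 0 in parental LLC cells given 4OHT, 1 for p65ko against noko responses and 8 for MLKL against noko responses. With the length trend removed there were 5 in siPKC, 7 in noko and 6 in p65ko cells, 2 in LLC MLKL and 0 in parental LLC cells, 1 for p65ko against noko, and 8 each for MLKL against siCTR and against noko responses. Parental LLC cells had 1 with no filter. Fitted on the libraries of the comparison alone, parental LLC cells had 0, LLC cells given digitonin 6, siPKC against siCTR responses 0 and p65ko against noko responses 4. BxPC3 cells had 6 with a pseudocount of 0.1. Leaving out 1 library gave 7 to 8 in siPKC cells, 3 to 6 in p65ko cells, 0 to 1 in LLC MLKL cells, 0 to 2 in parental LLC cells, 6 to 10 in LLC cells given digitonin, 1 to 3 in HT29 cells, 6 to 15 for HT29 against BxPC3 cells and 1 to 2 for p65ko against noko responses. For HT29 against BxPC3 cells, genes at 1 TPM in BxPC3 only left the test when either BxPC3 library was left out. The cause was not tested in the other cases.

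Libraries that share a replicate number did not deviate together: over 13 pairs of groups the correlation of deviations lay between -0.0378 and 0.0906. With a replicate block, parental LLC cells given 4OHT had 0 passing genes, p65ko against noko responses 1, MLKL cells given AP20187 14, untreated siPKC against siCTR cells 19, HT29 cells given digitonin 3 and BxPC3 cells given digitonin 7. No paired analysis was possible for LLC MLKL cells given AP20187 because both treated titles carry the same number.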
